A study of Mus musculus with 4 samples.

Results

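Actin genes and genes for proteins that build, cut, branch or move actin filaments were followed in mouse embryos at the 2-cell stage. These 10 genes are Actb, Actg1, Cfl1, Pfn1, Arpc2, Arpc3, Actr2, Actr3, Myh9 and Fmn2, chosen by symbol, and all 10 were found among the 30049 Ensembl genes of the table that the authors deposited. The embryos were wild type F2 offspring of BDF1 parents (crosses of C57BL/6 and DBA/2 mice). Zygotes taken 18 h after hCG, the hormone that triggers ovulation, were kept for 24 h in KSOM, a culture medium for preimplantation embryos, either with 2% dimethyl sulfoxide (DMSO) or without it. Each group was a pool of 50 embryos and is represented by 2 libraries, called control replicates 1 and 2 and DMSO replicates 1 and 2. The sources used here do not say whether the replicates came from separate cultures, so p-values measure the spread between these libraries, which may be technical. Values are in TPM, the share of a library's transcripts that a gene takes once length is corrected for, and they keep no sequencing depth. A difference between groups is a log2 fold change of TPM + 1, a scale on which changes of weakly expressed genes come out too small.

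Actin is a globular protein that assembles into filaments, and Actb and Actg1 encode the forms used by nearly all cells. The Arp2/3 complex starts branches on existing filaments, formins extend straight ones, profilin feeds monomers to growing ends and cofilin severs old filaments. Nonmuscle myosin pulls on filaments in the cell cortex and in the cleavage furrow. In eggs and early embryos actin positions the spindle and extrudes the polar bodies, and it drives each cleavage division.

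The pattern among these genes was uneven. Pfn1, encoding the main profilin, fell in DMSO-treated embryos to 34.6 ± 3.33 TPM from 146.5 ± 63.6 TPM (SD, n = 2 each). It was the 1 gene called (limma adjusted p under 0.05) among 8 that could be tested, where 20.5% of all genes tested were called, 14.1% as lower and 6.42% as higher. Arpc2 and Cfl1 were the most abundant genes on average, and neither was called. Actb and Actg1 were listed at or near 0 in most libraries, as were other genes that cells use widely. The plot of levels by library shows these values together.

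**Figure D1:**
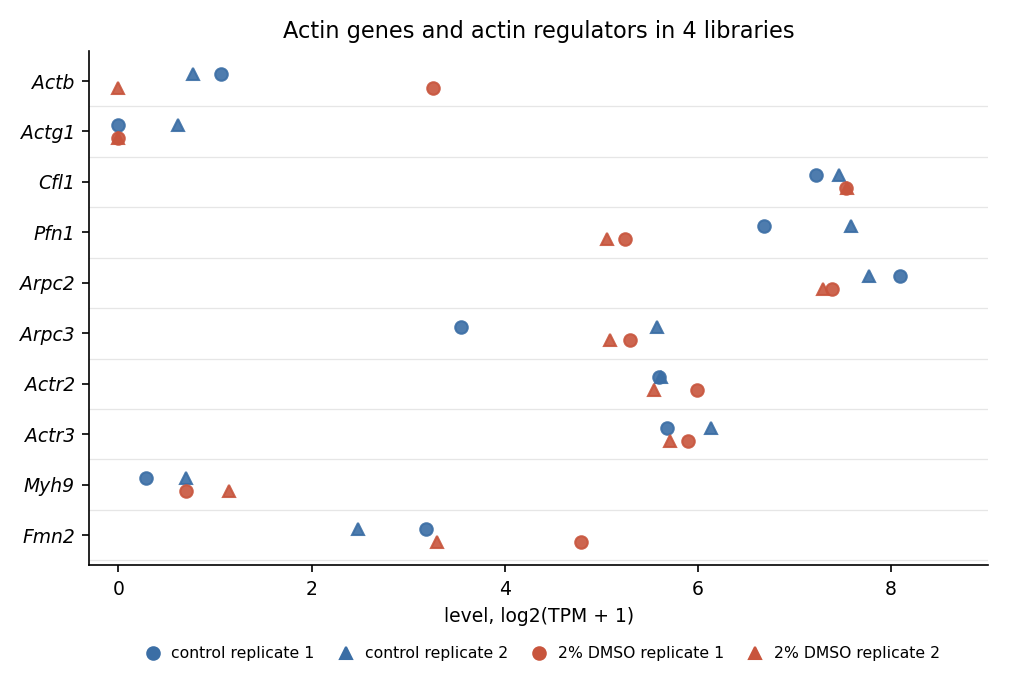
Level of each gene as log2(TPM + 1), with 1 point per library, control in blue and 2% DMSO in red (circles, replicate 1, and triangles, replicate 2). Pfn1 is lower in both DMSO libraries, while Actb and Actg1 lie near 0 except for Actb in DMSO replicate 1, at 8.58 TPM.

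The cytoplasmic actins are close relatives, and Actg1 has processed pseudogenes that share many of its sequence words, so the start of the coding sequences is shown first. The lines give the first 90 coding bases of Actb (chr5:142905597-142905686, minus strand) and Actg1 (chr11:120348002-120348091, minus strand). The third line is the stretch of the pseudogene Gm12715 that lines up with them (chr4:103563402-103563491, plus strand), all on GRCm38 with GENCODE M21. Capitals mark bases that differ from Actb.
Actb: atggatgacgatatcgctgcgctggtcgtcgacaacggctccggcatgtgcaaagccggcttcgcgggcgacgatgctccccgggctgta
Actg1: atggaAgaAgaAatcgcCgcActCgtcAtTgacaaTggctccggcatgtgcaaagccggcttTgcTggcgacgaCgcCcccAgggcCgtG
Gm12715: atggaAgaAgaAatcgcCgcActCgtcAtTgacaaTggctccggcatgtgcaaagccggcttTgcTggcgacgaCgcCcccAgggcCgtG
In this stretch Actg1 and Gm12715 differ from Actb at the same 16 positions, and not from each other. Over the whole coding sequence of 1128 bases, Actb and Actg1 are identical at 1000 bases, or 88.7%. The longest identical run is 62 bases, and 106 of the 1098 words of 31 bases in each coding sequence are shared. Gm12715 matches the Actg1 coding sequence at 1124 of 1128 bases, or 99.6%. The authors quantified reads with kallisto, which matches words of sequence to transcripts and splits reads that match several by an estimate, so the values of Actg1 and its pseudogenes are uncertain.

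Actb (ENSMUSG00000029580, chr5:142903115-142906754) was listed at 1.09 and 0.706 TPM in control replicates 1 and 2, against 8.58 and 0 TPM in DMSO replicates 1 and 2. The DMSO libraries lay on both sides of the control libraries. Actb reached the test, which required a mean level of 1 TPM or more, through DMSO replicate 1. Its log2 fold change was 0.71 (standard error 0.96, 95% interval -1.59 to 3.01, limma adjusted p = 0.599). Without DMSO replicate 1 it was -0.92, and without DMSO replicate 2 it was 2.34 at a limma adjusted p of 0.0354, so either DMSO library set its sign. Actg1 (ENSMUSG00000062825, chr11:120345690-120348542) was listed at 0 and 0.538 TPM in the controls and at 0 in both DMSO libraries. It was not tested. Of the 31-base words in Actb transcripts 23.6% also occur in other genes, and of those in Actg1 transcripts 40.2%.

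The Actg1 pseudogenes named here were also low, while Lrrc58 and Gm15725, which share words with Actb, were higher than these. Gm12715 was listed at 0 in every library, and Actg-ps1, another Actg1 pseudogene, likewise. Gm8399, 76.0% of whose words occur in Actg1, stood at 1.01 and 0.492 TPM in the controls and at 0.098 and 0.844 TPM with DMSO. Lrrc58, which shares 429 words with Actb, was at 15.5 and 23.6 TPM in the controls and at 6.39 and 6.37 TPM with DMSO. Gm15725, sharing 277 words with Actb, was between 3.16 and 6.35 TPM. The muscle actin genes Acta1, Acta2, Actc1 and Actg2 were also low, and the 6 actin isoforms together summed to 2.32 and 1.804 TPM in the controls against 10.8 and 2.91 TPM with DMSO.

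Near-zero values were not limited to actin. Pgk1 and Ldha, enzymes of glycolysis, were at 1.71 TPM or less in all 4 libraries, Ppp1cb, a catalytic subunit of myosin phosphatase, at 0.696 TPM or less, and Nlrp5, an abundant maternal product of the oocyte, at 0.142 TPM or less. Gapdh, in contrast, was at 126.5 and 73.2 TPM in the controls and at 86.4 and 89.0 TPM with DMSO. These genes, apart from Nlrp5, were picked after their values were seen. The table also sums to 20.1% to 23.2% less than the 1000000 TPM of a complete library, and the transcripts behind the rest were not analysed here. A value at or near 0 in the table is therefore given only as listed, not as absence of the RNA.

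Profilin 1 binds actin monomers and delivers them to growing filament ends. Pfn1 (ENSMUSG00000018293, chr11:70651850-70654644) was at 101.5 and 191 TPM in the controls against 36.9 and 32.2 TPM with DMSO. Both DMSO values lay below both controls, and the control libraries were further apart than the DMSO libraries. The level was 4.24-fold lower in DMSO-treated embryos by the group means. The log2 fold change was -1.98 (standard error 0.35, 95% interval -2.83 to -1.14, limma adjusted p = 0.0221). In pooled embryos, less RNA per cell and fewer cells that hold the RNA cannot be told apart. Pfn1 shares 0.3% of its words with other genes. Without control replicate 1 the log2 fold change was -2.44 (limma adjusted p = 0.0873), without control replicate 2 it was -1.53 (0.160) and without DMSO replicate 1 it was -2.08 (0.0879), so the call was lost in each of these fits. It held without DMSO replicate 2, at -1.89 (0.0484).

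The other profilins were less abundant and did not follow Pfn1. Pfn2 was at 5.65 and 5.91 TPM in the controls and at 17.7 and 11.97 TPM with DMSO, and Pfn4 at 15.0 and 11.7 against 36.5 and 28.8 TPM. Both rose, Pfn2 by 1.20 on the log2 scale (limma adjusted p = 0.0462) and Pfn4 by 1.23 (limma adjusted p = 0.0369). Both calls were lost in each fit that left out 1 library, and that of Pfn2 also without a trend in the variance. Pfn2 was named after its values were seen, as a relative of Pfn1. Pfn3 was listed at 0 in all libraries. Summed over the 4 genes, profilin stood at 122 and 209 TPM in the controls and at 91.2 and 73.0 TPM with DMSO.

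Cofilin 1 severs and disassembles filaments. Cfl1 (ENSMUSG00000056201, chr19:5490455-5495201) was at 149 and 175 TPM in the controls and at 184 and 185 TPM with DMSO. The DMSO libraries lay just above the controls and almost on each other. The log2 fold change was 0.19 (standard error 0.25, 95% interval -0.40 to 0.78, limma adjusted p = 0.580). Of the Cfl1 words 22.6% are shared, mainly with Snx32, a gene on the opposite strand whose span overlaps Cfl1 and which was at 1.09 TPM or less. The pseudogene Gm6180 was at 1.45 TPM or less, and adding it to Cfl1 left the log2 fold change at 0.20. The ratio of Pfn1 to Cfl1 within a library was 0.683 and 1.09 in the controls and 0.201 and 0.174 with DMSO.

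**Figure D2:**
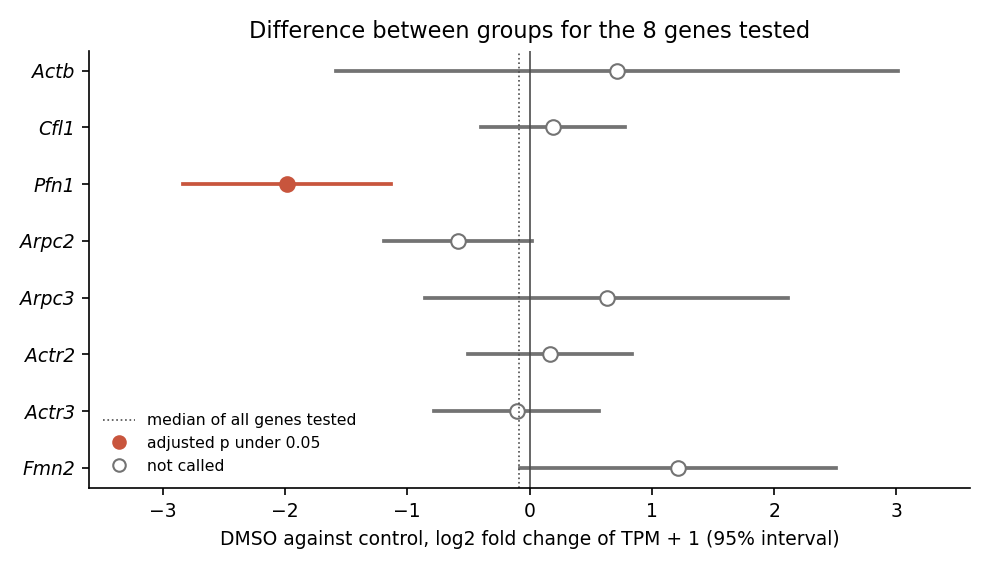
Log2 fold change of TPM + 1, DMSO against control, with the 95% interval from limma for the 8 genes tested. The filled point is Pfn1, at -1.98, the gene called at an adjusted p under 0.05, and the dotted line is the median of all genes tested, at -0.09.

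Actr2 and Actr3 encode the actin-related proteins Arp2 and Arp3, which mimic an actin dimer at the root of a branch, and the Arpc genes encode the subunits that hold them. Actr2 (chr11:20062304-20112913) was at 47.3 and 48.0 TPM in the controls and at 62.7 and 45.8 TPM with DMSO. Actr3 (chr1:125392905-125435727) was at 50.4 and 69.3 TPM against 58.5 and 51.4 TPM. The groups overlapped for both. Their log2 fold changes were 0.17 (95% interval -0.50 to 0.84, limma adjusted p = 0.671) and -0.11 (95% interval -0.78 to 0.57, limma adjusted p = 0.793). The sign turned for Actr2 without DMSO replicate 1, to -0.06, and for Actr3 without control replicate 2, to 0.12, and after quantile normalization, to 0.18. The processed pseudogene Gm8822 on chromosome X holds 33.4% of the Actr3 words and was listed at 12.2 and 12.5 TPM in the controls and at 15.5 and 12.4 TPM with DMSO. With that pseudogene and Gm15899 added to Actr3, the log2 fold change was -0.06.

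Arpc2 (chr1:74236084-74268209), the subunit that contacts the mother filament, was the most abundant of the 10 genes, at 272 and 217 TPM in the controls and at 167 and 156 TPM with DMSO. Both DMSO libraries lay under both controls. The group means were 245 ± 38.6 and 162 ± 7.46 TPM (SD, n = 2 each), with a log2 fold change of -0.59 (95% interval -1.19 to 0.02, limma adjusted p = 0.132), which did not pass the test. Arpc3 (chr5:122391878-122414184) was at 10.7 and 46.7 TPM in the controls and at 38.3 and 33.1 TPM with DMSO. Control replicate 1 stood apart from the other 3 libraries. The log2 fold change was 0.63 (95% interval -0.85 to 2.11, limma adjusted p = 0.466), and without control replicate 1 it was -0.38.

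The remaining subunit genes spanned a wide range of levels. Arpc5l, at 157 and 149 TPM in the controls and 199 and 159 TPM with DMSO, was the most abundant of them. Arpc1a was at 64.8 and 53.6 TPM against 115 and 94.98 TPM, with a log2 fold change of 0.82 (95% interval 0.18 to 1.45, limma adjusted p = 0.0713). Arpc4 stayed at 1.99 TPM or less, and Arpc5 was listed at 0 in replicate 1 of both groups and at 2.17 and 1.46 TPM in replicate 2. Of these 6 genes 5 were tested, and limma called 0, with 1, Arpc1a, at an unadjusted p under 0.05. Over all 12038 genes tested, 20.5% were called and 4835 had an unadjusted p under 0.05. Arpc1a, Arpc4 and Arpc5 were named after their values were seen. Arpc2 exceeded Actr2 in TPM 5.76 and 4.53 times in the controls and 2.66 and 3.41 times with DMSO. It exceeded Actr3 5.40 and 3.14 times in the controls and 2.85 and 3.045 times with DMSO. For Arpc3 the ratios overlapped, at 25.4 and 4.65 in the controls and 4.36 and 4.725 with DMSO.

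**Figure D3:**
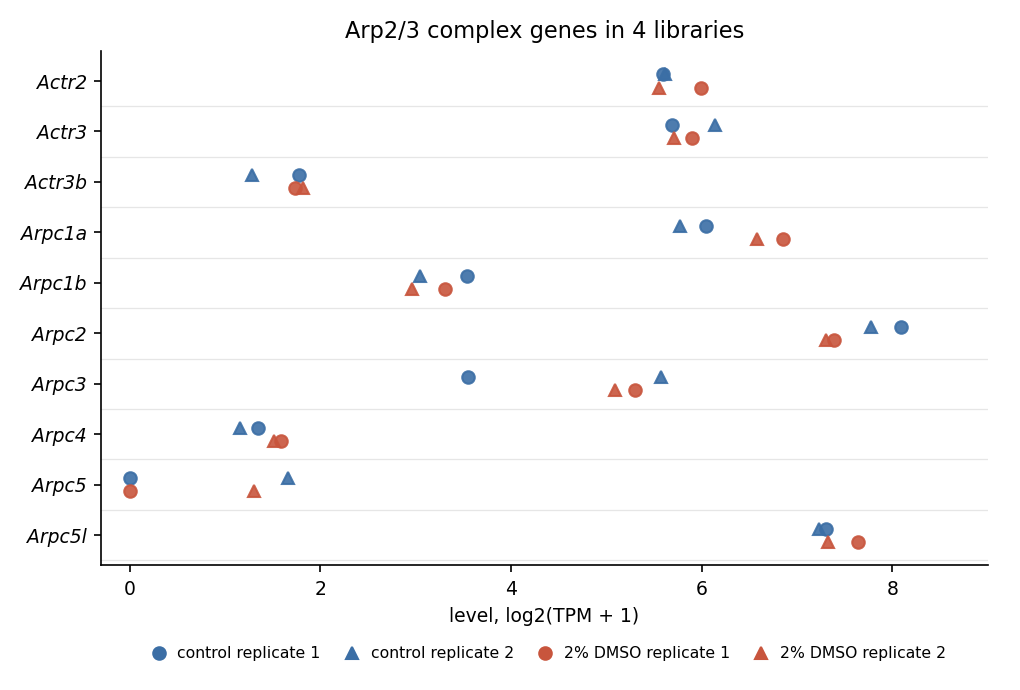
Level of the Arp2/3 complex genes as log2(TPM + 1), with 1 point per library, control in blue and 2% DMSO in red (circles, replicate 1, and triangles, replicate 2). Arpc2 and Arpc5l are the most abundant, Arpc4, Arpc5 and Actr3b have the lowest levels, and Arpc3 in control replicate 1, at 10.7 TPM, is apart from the other libraries.

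Formin 2 nucleates straight filaments and is known for moving the spindle in oocytes. Fmn2 (ENSMUSG00000028354, chr1:174501825-174822729) was at 8.07 and 4.57 TPM in the controls and at 26.6 and 8.81 TPM with DMSO. The groups did not overlap, but DMSO replicate 2 lay close to control replicate 1. The log2 fold change was 1.21 (standard error 0.54, 95% interval -0.08 to 2.50, limma adjusted p = 0.142). Without DMSO replicate 1 it was 0.47, and without DMSO replicate 2 it was 1.96 (limma adjusted p = 0.0485), so the size rested on DMSO replicate 1. Fmn2 shares 0.0% of its words with other genes. A list of 16 other genes held formins, Spire proteins, which start filaments together with formin 2, and Cobl, which is neither. Of these 16, 8 were tested, Cobl among them. limma called 0 of them, against 20.5% of all genes, and 0 had an unadjusted p under 0.05, against 4835 of all 12038. Fhod3 was the most abundant, at 68.4 and 31.1 TPM in the controls and at 110.9 and 59.6 TPM with DMSO.

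Myh9 encodes the heavy chain of nonmuscle myosin IIA, a motor of the contractile cortex. Myh9 (chr15:77760587-77842175) was at 0.22 and 0.622 TPM in the controls and at 0.624 and 1.22 TPM with DMSO, too low on average to be tested. The lower DMSO value all but equalled the higher control value. Myh10, the heavy chain of the related myosin IIB, was more abundant, at 15.3 and 13.8 TPM against 11.8 and 11.3 TPM (log2 fold change -0.31, limma adjusted p = 0.436). It was named after its values were seen, for comparison with Myh9.

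Set against all genes, the 10 genes did not stand out by their number of calls. At a limma adjusted p under 0.05, 2470 of 12038 genes tested were called, or 20.5%, with 14.1% lower and 6.42% higher. Of the 8 genes tested here 1 was called lower and 0 higher. No gene of the 8 besides Pfn1 had an unadjusted p under 0.05, against 4835 of the 12038. The libraries of the 2 groups did not overlap for 4 of the 8, namely Pfn1 and Arpc2, lower with DMSO, and Cfl1 and Fmn2, higher. Over all genes tested 69.8% did not overlap, 38.7% lower with DMSO and 31.1% higher. The median log2 fold change was 0.18 for the 8 genes and -0.09 for all genes. Of all calls 31.3% were higher, and 42.9% after median-ratio scaling, 49% after quantile normalization and 43.6% when TPM were rescaled without mitochondrial genes. Pfn1 was called under each of these scalings, with log2 fold changes from -1.88 to -1.72. An exact permutation test of 1 gene over these 4 libraries cannot go below p = 0.33, so calls rest on limma, which shares information on the variance between genes.

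**Figure D4:**
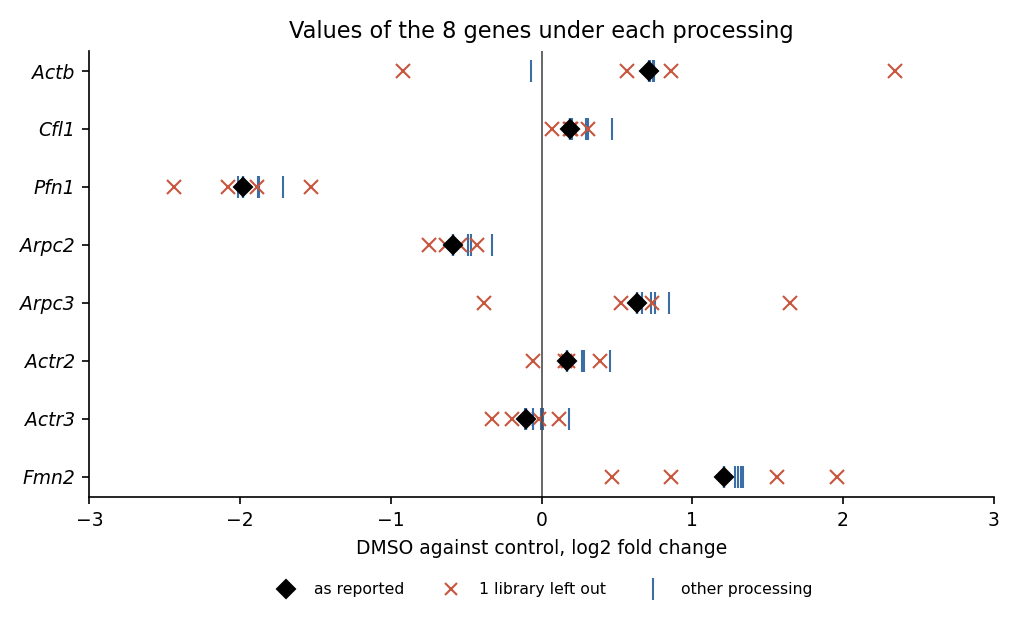
Log2 fold change of the 8 genes tested under each processing, with the reported value as a black diamond, fits that leave out 1 library as red crosses and other settings as blue bars. Pfn1 and Arpc2 stay below 0 and Cfl1 and Fmn2 above 0 in all of them, while Actb, Arpc3, Actr2 and Actr3 cross 0.

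A wider list of actin genes, sorted by role, was read in the same fit. Of 184 genes listed 179 were in the table and 127 were tested. limma called 11 lower, or 8.66% of those tested, and 8 higher, or 6.3%, against the 14.1% and 6.42% of all genes. These counts hold 1 lower call, Was, that passed the filter on low values only through the controls and 1 higher call, Myo1e, that passed it only through the DMSO libraries, so both had to differ and neither is read as a result. Was was named after its values were seen. The 10 genes described above are not in the wider list. The median log2 fold change of the 127 genes was 0.22. In fits that left out 1 library, limma called 0 genes of the whole table without control replicate 1, control replicate 2 or DMSO replicate 1, so the calls of this list were lost there too. Without DMSO replicate 2, those of Was, Brk1, Pfn2, Pfn4, Tmsb4x, Tpm1, Anln, Myo1e and Pak1 were lost among the genes named here. Without a trend, those of Brk1, Abi1, Pfn2, Tmsb4x and Xpo6 were lost, and with a pseudocount of 0.1 those of Was, Brk1, Tmsb4x and Myo1e. The call of Was was also lost when TPM were rescaled without mitochondrial genes. The split also depended on the scaling, with 8 lower and 13 higher after median-ratio scaling, 7 and 12 after quantile normalization, and 7 and 10 without mitochondrial genes. The calls over all 12038 genes moved as well. They were 1262 lower and 949 higher, 1121 and 1076, and 1229 and 952 under these scalings, in the same order. The plot of changes by role shows where the called genes lie.

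**Figure D5:**
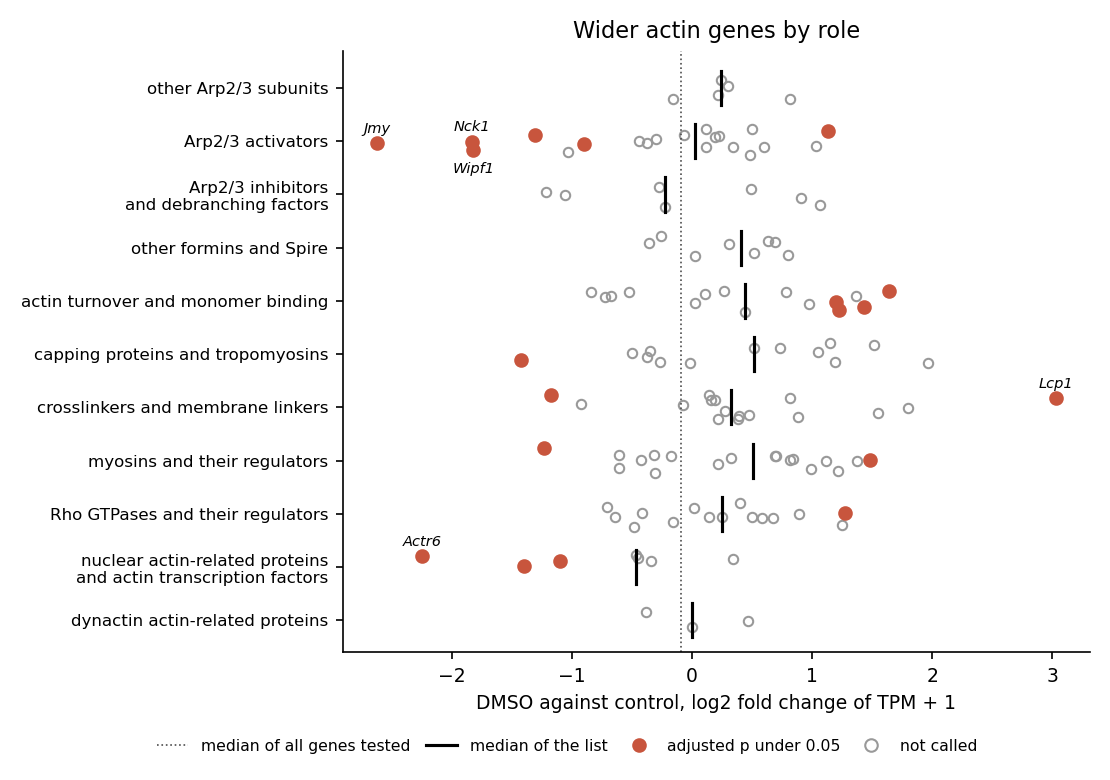
Log2 fold change of TPM + 1, DMSO against control, for 127 actin genes in 11 groups by role, with called genes filled in red, the median of each group as a black bar and the median of all genes tested as a dotted line. Among Arp2/3 activators 5 called genes lie on the left and 1 on the right, those of the nuclear actin-related proteins lie on the left and those for turnover and monomer binding on the right. Pfn1, called lower, belongs to none of the 11 groups and is not plotted.

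Activators of the Arp2/3 complex held 6 of these calls, 5 lower, Was among them, and 1 higher among 20 tested, or 25% and 5% against 14.1% and 6.42% of all genes. Jmy, a nucleation-promoting factor with a second role as a p53 cofactor, was at 34.8 and 50.0 TPM in the controls and at 3.44 and 9.87 TPM with DMSO (log2 fold change -2.62, limma adjusted p = 0.0221). Nck1, an adaptor that recruits the activator N-WASP, fell from 27.0 and 30.2 to 6.59 and 8.13 TPM (log2 fold change -1.83, limma adjusted p = 0.0199). Wipf1, which stabilises the WASP protein, fell from 12.4 and 16.6 to 3.002 and 3.77 TPM, or by 1.82 on the log2 scale (limma adjusted p = 0.0221). Brk1, a small subunit of the WAVE complex and the most abundant gene of the group, fell from 123 and 116 to 62.8 and 64.9 TPM, or by 0.90 on the log2 scale (limma adjusted p = 0.0463). The call of Brk1 was lost under all 3 scalings. Abi1, another WAVE subunit, rose from 27.3 and 26.4 to 68.9 and 52.0 TPM (log2 fold change 1.13, limma adjusted p = 0.0376). WAVE subunits were thus found on both sides.

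Among genes that restrain Arp2/3 or remove branches limma called 0 of 7 tested, against 20.5% of all genes. Of the 7, 4 had an unadjusted p under 0.05, 2 lower and 2 higher, against 4835 of all 12038, 2929 lower and 1906 higher. The 4 include Coro2a, at 0.493 and 0.362 TPM in the controls against 2.133 and 1.835 TPM with DMSO. Coro2a passed the filter on low values only through the DMSO libraries, so it had to differ and is not read as a result. It was named after its values were seen. Gmfb, a debranching factor and the most abundant of the 7, was at 16.4 and 27.0 TPM in the controls and at 9.52 and 7.64 TPM with DMSO (log2 fold change -1.21, limma adjusted p = 0.0526). It was called with the filter at a mean of 5 TPM (limma adjusted p = 0.0388).

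Genes for actin turnover and monomer binding had 4 calls among 15 tested, all higher, or 26.7% against 6.42% of all genes. Pfn1, called lower, and Cfl1 have the same role and are not among these 15. The 4 calls include those of the profilins Pfn2 and Pfn4 given above. Twf2, or twinfilin 2, which binds monomers and caps filament ends, rose from 5.33 and 3.72 to 18.3 and 13.9 TPM (log2 fold change 1.64, limma adjusted p = 0.0265). Tmsb4x, encoding the monomer-sequestering thymosin beta 4, rose from 11.9 and 5.83 to 23.8 and 24.9 TPM (log2 fold change 1.44, limma adjusted p = 0.0424). The call of Tmsb4x was lost with a pseudocount of 0.1 (limma adjusted p = 0.0503), without a trend (0.0505) and in each fit that left out 1 library. Tmsb10, its relative and the most abundant of the group, was at 76.9 and 94.97 TPM against 119 and 241 TPM (log2 fold change 0.98, limma adjusted p = 0.105). Cofilin 1, cofilin 2 and destrin, the actin-severing relatives, together summed to 260 and 271 TPM in the controls and to 301 and 275 TPM with DMSO.

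The list of nuclear actin-related proteins and actin transcription factors, which also holds an exportin and an importin, had 3 calls among 7 tested. All 3 were lower, or 42.9% against 14.1% of all genes. Actr6 and Actr5, actin-related subunits of chromatin-remodelling complexes rather than of filaments, fell from 54.5 and 67.2 to 9.74 and 14.7 TPM and from 33.2 and 37.9 to 9.55 and 17.1 TPM. The log2 fold change was -2.24 for Actr6 (limma adjusted p = 0.0181) and -1.40 for Actr5 (limma adjusted p = 0.0384). Xpo6, the exportin that carries actin with profilin out of the nucleus, fell from 97.5 and 116 to 42.1 and 57.3 TPM (log2 fold change -1.10, limma adjusted p = 0.0408). The calls of Actr5 and Xpo6 were lost under all 3 scalings, and that of Actr6 was kept. Srf, a transcription factor of actin genes, was at 13.8 and 18.9 TPM against 16.6 and 26.0 TPM and was not called. It was named after its values were seen.

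Calls in the other groups were scattered. The actin bundler Lcp1, or L-plastin, rose from 29.8 and 13.8 to 217 and 138 TPM, with the largest log2 fold change of the wider list, 3.03 (standard error 0.42, limma adjusted p = 0.0181). Anln, encoding the cytokinesis scaffold anillin, fell from 57.2 and 61.3 to 28.4 and 23.2 TPM, or by 1.18 on the log2 scale (limma adjusted p = 0.0324). The call of Anln was lost after quantile normalization. Tpm1, a tropomyosin that coats filaments, fell from 5.02 and 6.72 to 1.44 and 1.64 TPM (log2 fold change -1.42, limma adjusted p = 0.0342). Myo1e, a class I myosin, was at 0.984 and 0.396 TPM in the controls and at 4.599 and 2.85 TPM with DMSO. Pak1, a kinase driven by the GTPases Rac and Cdc42, rose from 9.36 and 9.49 to 27.7 and 21.2 TPM (log2 fold change 1.27, limma adjusted p = 0.0332). The most abundant genes of these groups besides Lcp1 were Pak2, Rock1 and Tpm3, with log2 fold changes of 0.58, 0.22 and -0.26, and none was called. The value of Tpm3 was 0.02 after quantile normalization. Of all 12038 genes tested, 20.5% were called and 4835 had an unadjusted p under 0.05. Among dynactin's actin-related proteins 0 of 3 tested were called, and 0 had such a p. The most abundant, Actr1a, was at 24.4 and 21.9 TPM against 35.6 and 29.4 TPM.

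Promoters were read for the genes at hand, since Pfn1 changed in level while the others were not called. RefSeq sequences on GRCm38.p6, running from 250 bases before the annotated start to 50 bases from it, were found for 9 of the 10 genes, all but Actb. The Pfn1 window (chr11:70654601-70654900, minus strand) is shown, with matches to the GC box GGGCGG on either strand in capitals.
Pfn1: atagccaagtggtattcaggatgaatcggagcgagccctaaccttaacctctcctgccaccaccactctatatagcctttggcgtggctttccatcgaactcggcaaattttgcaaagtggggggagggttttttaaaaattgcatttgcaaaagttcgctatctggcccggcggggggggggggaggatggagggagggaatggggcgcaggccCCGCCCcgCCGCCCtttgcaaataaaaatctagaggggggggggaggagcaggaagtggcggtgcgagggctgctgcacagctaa
The Pfn1 window holds 2 copies of GGGCGG and no match to the letters CCAAT, to the TATA element TATAAA or to the CArG box, the element that Srf binds. Its GC content is 57.0%, against 52.7% to 77.3% among the 9 windows and a median of 52.7% over all promoters. GGGCGG occurs in 9 of the 9 windows and in 35.7% of 32851 promoters of the same length, CCAAT in 5 of 9 and in 37.4%, and TATAAA in 1 of 9, that of Myh9, and in 13.6%. A CArG box occurs in 1 of 9, that of Actg1, and in 1.6% of promoters. It lies 90 to 81 bases before the start. Both strands were searched and overlapping copies were counted. A match is a string of letters and not a site of binding.

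Other measures also moved with the groups. The mitochondrial share of all TPM was 10.8% and 12.4% in the controls against 15.3% and 21.7% with DMSO. The 10 oocyte markers summed to 1113 and 715 TPM in the controls and to 2873 and 2217 TPM with DMSO. Oosp1 was the most abundant of them, at 877 and 576 against 2086 and 1763 TPM, and Nlrp5 was listed at 0 in replicate 1 of both groups. The markers of the 2-cell stage, of which 9 were found, summed to 800.0 and 620.5 TPM in the controls and to 1876 and 1343 TPM with DMSO, led by Tcstv3 at 297 and 209 against 716 and 574 TPM. Their part in the differences of actin genes was not tested, apart from the rescaling without mitochondrial genes.

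Markers of other cells and of other stages were read as well, and those of the oviduct and blood were not all low. The 12 cumulus and granulosa markers summed to 2.58 and 1.19 TPM in the controls and to 3.33 and 2.72 TPM with DMSO, Tnfaip6 being the most abundant at 1.52 TPM or less and Amh and Inhba being listed at 0 in all libraries. The 6 sperm markers summed to 2.96 and 3.38 against 13.5 and 8.69 TPM, mostly from Prm2, at 2.56 and 2.86 against 11.04 and 6.79 TPM, with Tnp2 at 0. The 7 oviduct and blood markers summed to 29.0 and 23.6 against 36.9 and 49.4 TPM, led by Ovgp1 at 17.9 and 19.5 against 26.2 and 33.2 TPM, with Krt5 and Hbb-bt at 0. The 5 markers of later embryos summed to 20.99 and 14.3 against 25.7 and 24.7 TPM, led by Nanog at 7.73 and 7.04 against 11.5 and 14.0 TPM.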

How the data were processed

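RNA of pooled 2-cell embryos was amplified as cDNA with a low-input kit and sequenced in 4 libraries. The authors quantified reads with kallisto on the Ensembl mouse transcriptome of GRCm38 and summed transcripts per gene with tximport, and they deposited TPM values, not counts. Their version of kallisto is not given in the sources used here. The listed genes summed to between 768174 and 799166 TPM per library, not to 1000000, and the depth is unknown. No batch was named in the labels. No column was left out.

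Testing used limma 3.58.1 under R 4.3.3 on log2(TPM + 1), for genes averaging 1 TPM or more (eBayes with a trend, no block, Benjamini-Hochberg adjustment over all genes tested, threshold 0.05). The test was checked on simulated data with the same spread for all genes and libraries that varied independently. Spreads that differ between genes were not covered by that check. Symbols, coordinates and transcripts came from GENCODE M21, which named 29589 of the identifiers, and words of 31 bases were counted on either strand. The alternatives were a pseudocount of 0.1, no filter, a filter at 5 TPM, no trend, 3 scalings, a replicate block, leaving out each library and adding pseudogenes that hold at least 50% of their words in a gene. The 10 genes and the lists were chosen with earlier results of these data known. In each list the text names the most abundant gene tested and up to 3 genes called in each direction with the largest change. The rule would also name genes holding over 50% of the words of 1 of the 10 genes, but it found 0, so the pseudogenes, Lrrc58, Gm15725 and Snx32 were named for the words they share, after their values were seen. Besides the 11 role lists described, 0 of 5 tissue-restricted actins reached the test, the most abundant being Acta1 at 2.11 TPM or less. Sequence work and plots used Python 3.11.15 with numpy 2.4.6, pandas 2.3.3 and matplotlib 3.10.9, and the motif background left out promoters of 1 chromosome. The values of 1 called gene of the wider list are not reported here, and the counts include it.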

Additional observations from a re-analysis of the deposited data

How the results depend on the processing

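The 2 libraries per group and the unknown depth limit every value given. The fall of Pfn1 kept its direction in all alternatives, and it lost its call without a filter on low values (log2 fold change -1.98, limma adjusted p = 0.103) and in 3 of the 4 fits that left out a library, which gave -2.44 to -1.53. In a fit without a library the lone sample of a group is assumed to vary like the others. Without a filter 0 of 22257 genes were called by limma, with 5368 at an unadjusted p under 0.05, so that 0 of the 10 genes and 0 and 0 of the wider list were called lower and higher (17 and 20 at an unadjusted p under 0.05). Without 1 library the calls ranged from 0 to 1883 over all genes, 0 to 1 lower and 0 to 2 higher among the 10, and 0 to 6 lower and 0 to 9 higher in the wider list. The calls were 0 without control replicate 1, control replicate 2 or DMSO replicate 1, with 3745, 2602 and 3078 genes at an unadjusted p under 0.05, and the cause was not tested. In the wider list 7 genes were called lower after quantile normalization and 7 without mitochondrial genes, 13 were called higher with median-ratio scaling and 5 without a trend. Over all 12038 genes tested the same calls numbered 1121, 1229, 949 and 629.

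The log2 fold change of Actb was -0.0717 with a pseudocount of 0.1. That of Actr3 was 0.18 after quantile normalization and 0.0098 without mitochondrial genes, and that of Tpm3 0.0152 after quantile normalization. Without 1 library the values ranged from -0.92 to 2.34 for Actb, 0.07 to 0.31 for Cfl1, -0.75 to -0.43 for Arpc2, -0.38 to 1.65 for Arpc3, -0.055 to 0.39 for Actr2, -0.33 to 0.12 for Actr3 and 0.47 to 1.96 for Fmn2. In the wider list they ranged from 0.11 to 1.06 for Pak2 and 0.08 to 0.36 for Rock1. Those of Tpm3 ranged from -0.525 to -0.0016 and those of Tmsb10 from 0.47 to 1.48.

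The replicate numbers of the labels are shared between the groups, but nothing says that they mark a common culture or day. Libraries with the same number deviated from the group means with a correlation of 0.35 across 12038 genes. A fit with the replicate block called 5132 of all 12038 genes tested, 2981 lower and 2151 higher. Of the 8 tested among the 10 genes it called 2 lower and 1 higher. Of the 127 tested in the wider list it called 16 lower and 28 higher. Arpc2 (-0.59, limma adjusted p = 0.0339) and Fmn2 (1.21, limma adjusted p = 0.0181) then passed beside Pfn1, and of the wider list Gmfb, Fhod3, Tmsb10 and Pak2 (limma adjusted p from 0.0173 to 0.0397).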
